A study of Mus musculus with 17 samples.

Results

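Transcript levels of 10 genes that centre on the transcription factor NRF2 were followed in mouse kidney cortex, out of 48795 genes in the deposited count table. The genes were chosen by name, with earlier results of these data known. They were Nfe2l2, which encodes NRF2, its inhibitor Keap1, and the antioxidant genes Nqo1, Hmox1, Srxn1, Txnrd1, Gclc, Gclm, Gsr and G6pdx. All 10 were found in the table and all passed the low-expression filter in every comparison.

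The 17 samples were cortices of 5 wild type mice (WT), 5 ATF4 KO mice (GCERAd), 3 TRACK mice and 4 TRACK-ATF4 KO mice (GCERAdT), each described in the labels as a numbered mouse of its group. ATF4 is the main transcription factor of the integrated stress response, and TRACK stands for a transgenic model of kidney cancer. The comparisons ask how the ATF4 KO and TRACK labels, alone and together, bear on the transcriptome. GCERAd mice were homozygous for floxed Atf4 and for a CreER transgene under part of the Ggt1 promoter, which acts in proximal tubules and most in their last segment. Tamoxifen (20 mg/mL) was injected on 2 days when they were 6 weeks old. A month after the first injection, mice of the study were fasted for 16 h before the kidneys were taken. The treatment of WT, TRACK and GCERAdT mice, their ages, the sexes of the mice and the transgene of the TRACK line are not given in the sources used here. The methods speak of 3 to 4 mice per cohort, whereas WT and GCERAd hold 5 samples each. In the paper's library list, 2 names recur with a letter added. These libraries, and those under a second name prefix, have lower yields in bases than the rest of the list. Which samples they are is not stated, so whether they follow the library differences described below cannot be checked here. The main fits count every sample singly. An alternative summed WT 1 with WT 2 and GCERAd 2 with GCERAd 3 as possible repeat libraries. P-values therefore measure the spread between these samples, part of which may be technical.

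NRF2 is held in the cytosol by KEAP1, which hands it to a CUL3 ubiquitin ligase for degradation. Oxidants and electrophiles modify cysteines of KEAP1, and NRF2 then reaches the nucleus, where it pairs with small MAF proteins on antioxidant response elements. Its targets make glutathione, recycle thioredoxin and glutathione, supply NADPH and detoxify quinones and heme, and the proximal tubule, with its dense mitochondria and its exposure to filtered toxins, is a well-studied site of this response. NRF2 activity is set mainly by protein stability, so transcript levels of Nfe2l2 and Keap1 do not measure it.

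The core of the antioxidant response element, TGACNNNGC, was searched on both strands in the promoter windows of RefSeq (GRCm38.p6), which run from 250 bases before to 50 bases after a start site. Windows were at hand for 7 of the 10 genes, and 5 of these 7 (71.4%) held the letters, against 14% of 27025 genes with a window. The following 3 matches lie outside annotated exons and are printed 5′ to 3′ on the strand of the gene, with the matched letters in capitals, to show what the shared sequence feature looks like.
Nfe2l2 (chr2:75704869-75704913, minus strand): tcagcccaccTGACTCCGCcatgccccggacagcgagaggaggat
Gclm (chr3:122245397-122245457, plus strand): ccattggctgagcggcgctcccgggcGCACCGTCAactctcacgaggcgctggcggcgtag
Txnrd1 (chr10:82859088-82859148, plus strand): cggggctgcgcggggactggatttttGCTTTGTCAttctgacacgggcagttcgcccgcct
The match in Nfe2l2 reads along the gene's own strand, and those in Gclm and Txnrd1 are on the opposite strand, printed as GCNNNGTCA. Their first bases lie 240, 134 and 92 bases before the start site of their window. For Txnrd1 this is an internal start at position 82859206, and neither its window at 82833951, the start of the gene, nor that at 82860341 held the letters. Srxn1 and G6pdx held matches that overlap or adjoin exons, which read GCTAGGTCA and GCTCAGTCA. No match to these letters was present in the windows of Nqo1 and Keap1. Windows of Hmox1, Gclc and Gsr were not analysed here. A match describes the letters only and does not show that NRF2 binds there.

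Depth ran from 53688512 to 71364561 counts on genes per sample, and every member had at least 695 counts in every sample. Levels are given as CPM, counts scaled to library size with TMM factors, and as FPKM, which also scales to exon length, where genes are compared with each other. A value after ± is the SD for a mean level and the standard error for a log2 (fold) change, and adjusted p is that of edgeR. The tissue label was met by markers: the summed level of 7 proximal tubule genes, which include Slc34a1 and Lrp2, was 6826.6 to 8370.6 CPM in WT, 7046.6 to 10137.0 in GCERAd, 4188.2 to 4621.5 in TRACK and 4497.2 to 5437.7 in GCERAdT. The deleted gene, Atf4, was at 79.0, 74.4, 82.3, 86.4 and 100.1 CPM in WT 1 to 5, at 73.1, 56.0, 57.7, 63.2 and 77.0 CPM in GCERAd 1 to 5, at 93.8, 79.8 and 77.2 CPM in TRACK 1 to 3 and at 79.6, 93.1, 92.8 and 104 CPM in GCERAdT 1 to 4. Atf4 was lower in GCERAd than in WT, with a log2 fold change of -0.38 ± 0.11 (adjusted p = 0.0218), the groups overlapping. Over TRACK, the libraries labelled GCERAdT gave 0.17 ± 0.11 (adjusted p = 0.367), so their Atf4 level did not check the label. Other cortex cells keep the gene, and whether the counted reads lie in the deleted part is not given in the sources used here.

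Several features of the libraries moved with the groups. Xist, which is transcribed from the inactive X chromosome, was at 149 to 418 CPM in WT and at most 6.07 CPM in the other groups, and the Y-linked Ddx3y had no count in WT and 49.8 to 71.2 CPM in GCERAd, 71.8 to 75.8 in TRACK and 62.2 to 80.3 in GCERAdT. Eif2s3y and Uty were likewise at 0 in all WT samples, and Kdm5d in all but WT 2. By these genes the WT samples read as female and all other samples as male, although the sources used here give no sex. The WT label and this pattern of sex therefore cannot be told apart in any comparison with WT. GCERAd 4 and 5 stood apart from GCERAd 1 to 3 over the whole profile, with a mean chi-square per gene of 287 to 348 between the subsets against 36.6 to 78.6 among GCERAd 1 to 3 and 46.8 between GCERAd 4 and 5. Calls of members and most pathway counts in comparisons with GCERAd are therefore also given without GCERAd 4 and 5. Marker calls, single pathway genes and correlations are given with all samples only.

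**Figure D1:**
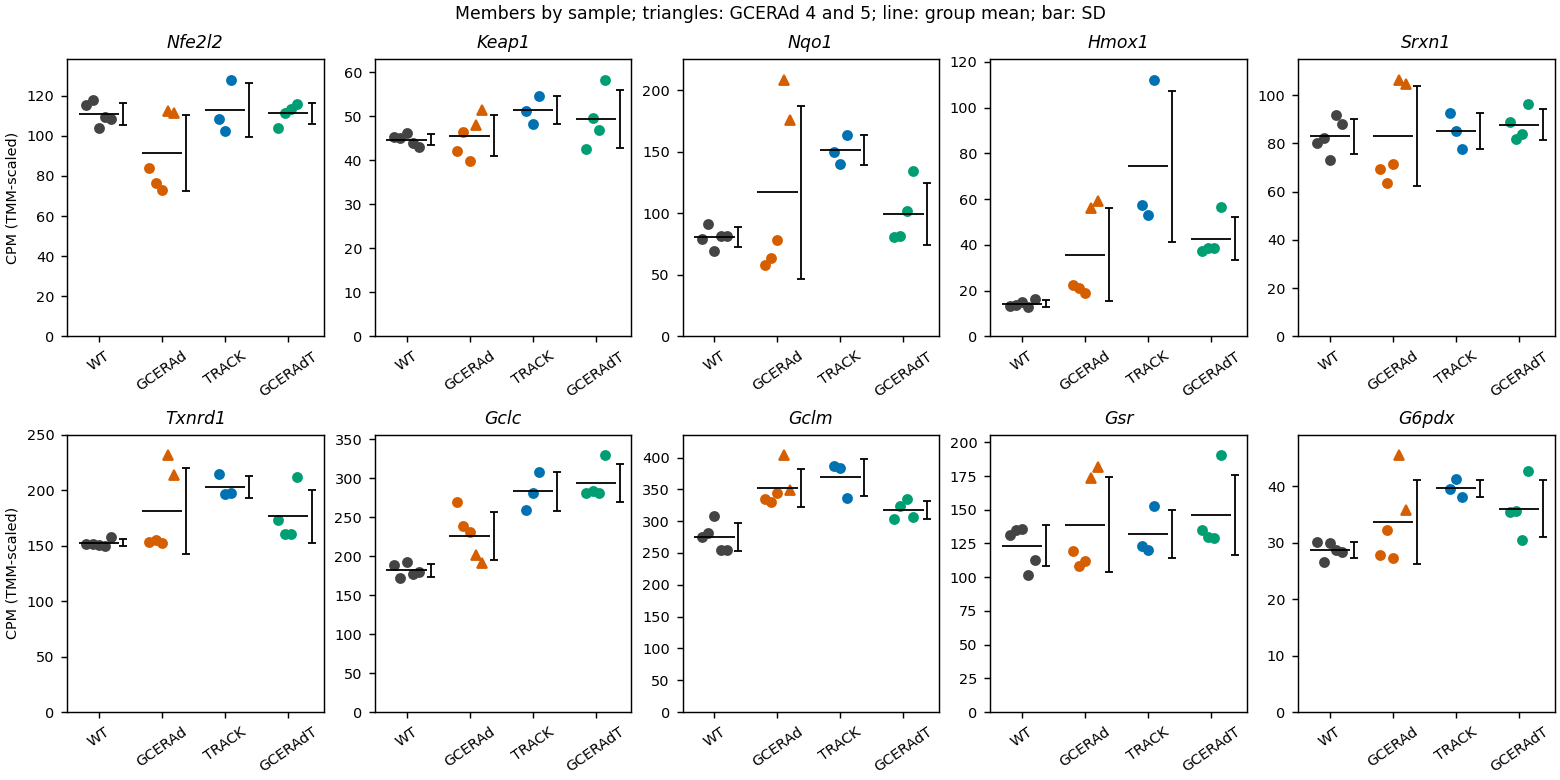
TMM-scaled CPM of the 10 genes (vertical axes from 0) in every sample of the 4 groups (horizontal axes), with the group mean as a line and the SD as a bar. GCERAd 4 and 5, drawn as triangles, lie above the other 3 GCERAd samples for 9 genes and below them for Gclc.

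Over all samples and per length of transcript, Nqo1 had the highest mean level of the 10 genes with 69.3 FPKM. It was followed by Gclc with 63.8, Gclm with 51.5 and Gsr with 48.9 FPKM. Srxn1, Nfe2l2, Txnrd1 and Hmox1 had mean levels of 30.0, 27.9, 24.8 and 21.7 FPKM, and G6pdx and Keap1 were the lowest with 11.0 and 10.1 FPKM. The genes differed in how far they ranged: the highest sample was 8.75 times the lowest for Hmox1 and 3.59 times for Nqo1, on the CPM scale, and 1.46 to 1.92 times for the other 8.

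Nfe2l2 encodes NRF2 itself. Nfe2l2 was measured at 115, 118, 104, 109 and 108 CPM in WT 1 to 5 and at 84.1, 76.5, 72.9, 112 and 111 CPM in GCERAd 1 to 5. In TRACK 1 to 3 it stood at 108, 102 and 128, and in GCERAdT 1 to 4 at 104, 111, 114 and 116 CPM. The 3 GCERAd samples 1 to 3 lay below every other sample, and GCERAd 4 and 5 lay within the WT range. Over WT, GCERAd had a log2 change of -0.29 ± 0.12 (adjusted p = 0.0942, edgeR), and without GCERAd 4 and 5 it fell by 0.50 ± 0.08 on the log2 scale (adjusted p = 6.58e-04). Leaving out GCERAd 4 alone or GCERAd 5 alone also brought the call, with log2 fold changes of -0.37 (adjusted p = 0.0356) and -0.36 (adjusted p = 0.0403). The gene was also called in 1 fit of all 17 samples (adjusted p = 0.0459) and with library kind, defined below by the share of pseudogene counts, added to the model (adjusted p = 0.0309). TRACK and WT did not differ detectably, with a log2 change of 0.02 ± 0.09 (adjusted p = 0.858).

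Keap1 encodes the adaptor that marks NRF2 for degradation. Keap1 was measured at 45.2, 45.1, 46.1, 43.9 and 42.9 CPM in WT 1 to 5 and at 42.0, 46.5, 39.9, 48.1 and 51.5 CPM in GCERAd 1 to 5. TRACK 1 to 3 had 51.2, 48.2 and 54.6 CPM and GCERAdT 1 to 4 had 42.6, 49.6, 46.9 and 58.3 CPM. WT samples were within 42.9 to 46.1 CPM, and the 3 TRACK samples lay above all of them. Keap1 rose in TRACK over WT by a log2 change of 0.20 ± 0.06 (adjusted p = 0.0242), a call that was lost without WT 5, TRACK 1 or TRACK 3, with adjusted p = 0.0561, 0.0624 and 0.0958. It was also lost with no filter (adjusted p = 0.104), the replicate block (adjusted p = 0.166), 1 fit of all 17 samples (adjusted p = 0.0830) and library kind added to the model (adjusted p = 0.192). In GCERAd over WT it had a log2 change of 0.02 ± 0.07 (adjusted p = 0.854). The antisense gene Gm16754 covers 10.9% of the Keap1 exons at a mean of 1.26 CPM, and the strand setting of the counting is not given in the sources used here.

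Nqo1 encodes a quinone reductase that is widely used as a readout of NRF2. Nqo1 was measured at 78.8, 91.5, 69.1, 81.7 and 81.5 CPM in WT 1 to 5 and at 58.1, 63.8, 78.3, 208 and 176 CPM in GCERAd 1 to 5. Values of 149.6, 140.1 and 164 CPM were found in TRACK 1 to 3, and of 80.5, 81.5, 102 and 134 CPM in GCERAdT 1 to 4. GCERAd 1 and 2 lay below the WT range, GCERAd 3 within it and GCERAd 4 and 5 above every other sample of the series, so the GCERAd mean of 117 ± 70.0 CPM (SD, n = 5) falls where no sample lies. All TRACK samples lay above all WT and all GCERAdT samples. GCERAd over WT gave a log2 change of 0.52 ± 0.33 (adjusted p = 0.262), which turned to -0.27 ± 0.12 (adjusted p = 0.108) without GCERAd 4 and 5. Among libraries of kind A, the kind with the lower pseudogene share, Nqo1 was called lower in GCERAd over WT, at -0.35 (adjusted p = 0.0225). Nqo1 rose in TRACK over WT by a log2 change of 0.91 ± 0.10 (adjusted p = 6.87e-05).

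Hmox1 encodes heme oxygenase 1, which opens heme to biliverdin and releases iron and carbon monoxide. It answers to several other factors besides NRF2 and is repressed by BACH1. Hmox1 was measured at 13.4, 13.7, 15.0, 12.8 and 16.6 CPM in WT 1 to 5 and at 22.7, 21.0, 19.0, 56.3 and 59.3 CPM in GCERAd 1 to 5. In TRACK 1 to 3 its level was 57.6, 53.1 and 112 CPM, and in GCERAdT 1 to 4 it was 37.2, 38.5, 38.6 and 56.7 CPM. WT was the lowest group with no overlap with any other group, and TRACK 3 was the highest sample. Hmox1 rose in GCERAd over WT by a log2 change of 1.30 ± 0.31 (adjusted p = 0.00951), and by 0.55 ± 0.10 (adjusted p = 0.00195) without GCERAd 4 and 5. In TRACK over WT it rose by a log2 change of 2.38 ± 0.22 (adjusted p = 2.52e-05), and by 1.95 without TRACK 3.

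Srxn1 encodes sulfiredoxin, which repairs over-oxidised peroxiredoxins. Srxn1 was measured at 80.0, 82.3, 73.1, 91.7 and 88.0 CPM in WT 1 to 5 and at 69.6, 63.5, 71.4, 106 and 105 CPM in GCERAd 1 to 5. TRACK 1 to 3 gave 92.7, 85.0 and 77.8 CPM and GCERAdT 1 to 4 gave 89.0, 81.8, 84.0 and 96.2 CPM. GCERAd 1 to 3 were the lowest samples and GCERAd 4 and 5 the highest, while the other 3 groups overlapped. GCERAd over WT gave -0.01 ± 0.14 (adjusted p = 0.964) on the log2 scale, and without GCERAd 4 and 5 Srxn1 fell by 0.28 ± 0.09 (adjusted p = 0.0356). TRACK over WT gave 0.03 ± 0.09 (adjusted p = 0.797).

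Txnrd1 encodes the cytosolic thioredoxin reductase. Txnrd1 was measured at 152, 152, 151, 150.1 and 158 CPM in WT 1 to 5 and at 153, 155, 153, 232 and 214 CPM in GCERAd 1 to 5. It was at 215, 197 and 198 CPM in TRACK 1 to 3 and at 173, 161, 161 and 212 CPM in GCERAdT 1 to 4. WT and GCERAd 1 to 3 together stayed within 150.1 to 158 CPM, and every TRACK sample lay above them. Txnrd1 rose in TRACK over WT by a log2 change of 0.41 ± 0.06 (adjusted p = 5.43e-04). GCERAd over WT gave 0.24 ± 0.12 (adjusted p = 0.153), and 0.02 ± 0.06 (adjusted p = 0.865) without GCERAd 4 and 5.

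Gclc encodes the catalytic subunit of glutamate-cysteine ligase, which carries out the rate-limiting step of glutathione synthesis. Gclc was measured at 188, 172, 192, 178 and 179.7 CPM in WT 1 to 5 and at 269, 238, 230.4, 201 and 192 CPM in GCERAd 1 to 5. The TRACK samples 1 to 3 had 259, 281 and 308 CPM and GCERAdT 1 to 4 had 281, 283, 281 and 329 CPM. Unlike the other members, GCERAd 4 and 5 had the lowest values of their group. Gclc rose in GCERAd over WT by a log2 change of 0.31 ± 0.10 (adjusted p = 0.0319), with an overlap between GCERAd 5 and WT 3. Without WT 1, 2, 4 or 5, or without GCERAd 1, 2 or 3, the call was lost, with adjusted p between 0.0543 and 0.0675, and without GCERAd 4 and 5 together the change was 0.44 ± 0.07 (adjusted p = 9.78e-04). The call was lost as well with no filter (adjusted p = 0.0656), with the replicate block (adjusted p = 0.0720) and with possible repeat libraries summed (adjusted p = 0.0893). In TRACK over WT, Gclc rose by a log2 change of 0.63 ± 0.07 (adjusted p = 1.12e-04) with no overlap.

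Gclm encodes the modifier subunit of the same ligase. Gclm was measured at 275, 281, 308, 255 and 255 CPM in WT 1 to 5 and at 336, 330.1, 344, 404 and 348 CPM in GCERAd 1 to 5. In TRACK 1 to 3 the values were 387, 384 and 336 CPM, and in GCERAdT 1 to 4 they were 304, 324, 334 and 307 CPM. All GCERAd samples and all TRACK samples lay above all WT samples. Gclm rose in GCERAd over WT by a log2 change of 0.35 ± 0.08 (adjusted p = 0.00537), and by 0.30 ± 0.07 (adjusted p = 0.0110) without GCERAd 4 and 5. The change in TRACK over WT was a log2 change of 0.42 ± 0.08 (adjusted p = 0.00199). The latter call was lost with library kind added to the model (adjusted p = 0.0571) and among kind B libraries (adjusted p = 0.0996).

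Gsr encodes glutathione reductase, which returns oxidised glutathione to its reduced form. Gsr was measured at 131, 135, 136, 101 and 113 CPM in WT 1 to 5 and at 119.5, 108, 112, 173 and 181 CPM in GCERAd 1 to 5. Its level was 123, 120.1 and 152 CPM in TRACK 1 to 3 and 135, 129.9, 129 and 190.4 CPM in GCERAdT 1 to 4. The 4 groups overlapped, with GCERAd 4 and 5 and GCERAdT 4 above all other samples. Neither contrast with WT was called: GCERAd gave 0.16 ± 0.15 (adjusted p = 0.463) and TRACK gave 0.10 ± 0.12 (adjusted p = 0.537), and the former turned to -0.11 ± 0.10 (adjusted p = 0.427) without GCERAd 4 and 5.

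G6pdx encodes glucose-6-phosphate dehydrogenase, which opens the oxidative pentose phosphate pathway and supplies NADPH to both reductases. G6pdx was measured at 30.1, 26.6, 30.0, 28.7 and 28.3 CPM in WT 1 to 5 and at 27.9, 32.2, 27.3, 45.5 and 35.8 CPM in GCERAd 1 to 5. The 3 TRACK samples had 39.5, 41.3 and 38.2 CPM, and GCERAdT 1 to 4 had 35.4, 35.7, 30.5 and 42.7 CPM. TRACK lay above WT without overlap, and G6pdx rose by a log2 change of 0.46 ± 0.06 (adjusted p = 3.61e-04). GCERAd over WT gave 0.22 ± 0.12 (adjusted p = 0.198), and 0.03 ± 0.08 (adjusted p = 0.830) without GCERAd 4 and 5. The exons of Ikbkg, a gene on the opposite strand with a mean of 41.8 CPM, cover 13.6% of the G6pdx exons. Whether reads there were lost to G6pdx, or counted for the wrong gene, is not known without the strand setting. The near-identical retrocopy of G6pdx, G6pd2, had at most 0.07 CPM.

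Set together, 3 of the 10 genes, Hmox1, Gclc and Gclm, were called in GCERAd over WT, all higher, where 27.6% of the 11581 genes tested were called and 14.1% were called higher. The median log2 fold change of the 10 was 0.23, against 0.00 over all genes tested, and 2 of them did not overlap between the groups, against 20% of all genes. Without GCERAd 4 and 5, 5 of 10 were called, Hmox1, Gclc and Gclm higher and Nfe2l2 and Srxn1 lower, where 30.9% of 11636 genes were called, 16.2% higher and 14.7% lower. With all samples, the share of members called was near that of all genes. Markers of other cell types moved with this comparison too. All 4 fibroblast markers and 4 of 5 erythroid markers were called higher, with sums of 93.7 to 142 CPM against 66.5 to 80.4 CPM in WT and of 149 to 261 against 71.4 to 130.2 CPM. All 3 markers of collecting duct principal cells and both of the thick ascending limb were called lower, with sums of 255 to 477 against 706 to 860.3 CPM and of 3347.8 to 4669.2 against 5031.7 to 7816.1 CPM. None of the 7 proximal tubule markers was called, and none of the markers named here was at 0 throughout a group. Their part in the result was not tested. In bulk cortex, fewer cells of a type and less RNA per cell cannot be told apart.

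In TRACK over WT, 7 of the 10 were called, all higher: Keap1, Nqo1, Hmox1, Txnrd1, Gclc, Gclm and G6pdx. Of the 11967 genes tested 45.6% were called, and 23% were called higher. The 7 called genes also did not overlap between the groups, as was so for 44.3% of all genes. The median log2 fold change of the 10 was 0.42, against -0.01 over all genes. TRACK and WT differed in other ways too: the summed proximal tubule markers were lower in TRACK, as given above, and the 4 injured tubule markers Havcr1, Lcn2, Krt20 and Vcam1 summed to 35.3 to 71.5 CPM in TRACK and 8.34 to 11.8 CPM in WT. Called higher were 4 of 4 endothelial markers (sums of 347 to 392 against 199 to 229 CPM), 3 of 4 fibroblast markers (128 to 243 against 66.5 to 80.4 CPM) and 4 of 5 erythroid markers (174 to 459 against 71.4 to 130.2 CPM). Of 7 targets of the hypoxia-inducible factors, a list chosen after values were seen, 5 were higher (922 to 1326.9 against 398 to 475 CPM). Lower were 3 of 3 markers of collecting duct principal cells (364 to 416 against 706 to 860.3 CPM). Mitochondrial genes took 11.6 to 12.3% of the counts in TRACK and 17.1 to 19.1% in WT. All 3 TRACK libraries but only WT 2 held a share of processed pseudogene counts above 0.0477%, here called library kind B. Among the kind B libraries alone, Nqo1, Hmox1, Gclc and G6pdx were called, with log2 fold changes of 0.72, 2.44, 0.71 and 0.57, on a single WT sample that is assumed to vary like the others. The part of these features in the result was not tested beyond that.

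**Figure D2:**
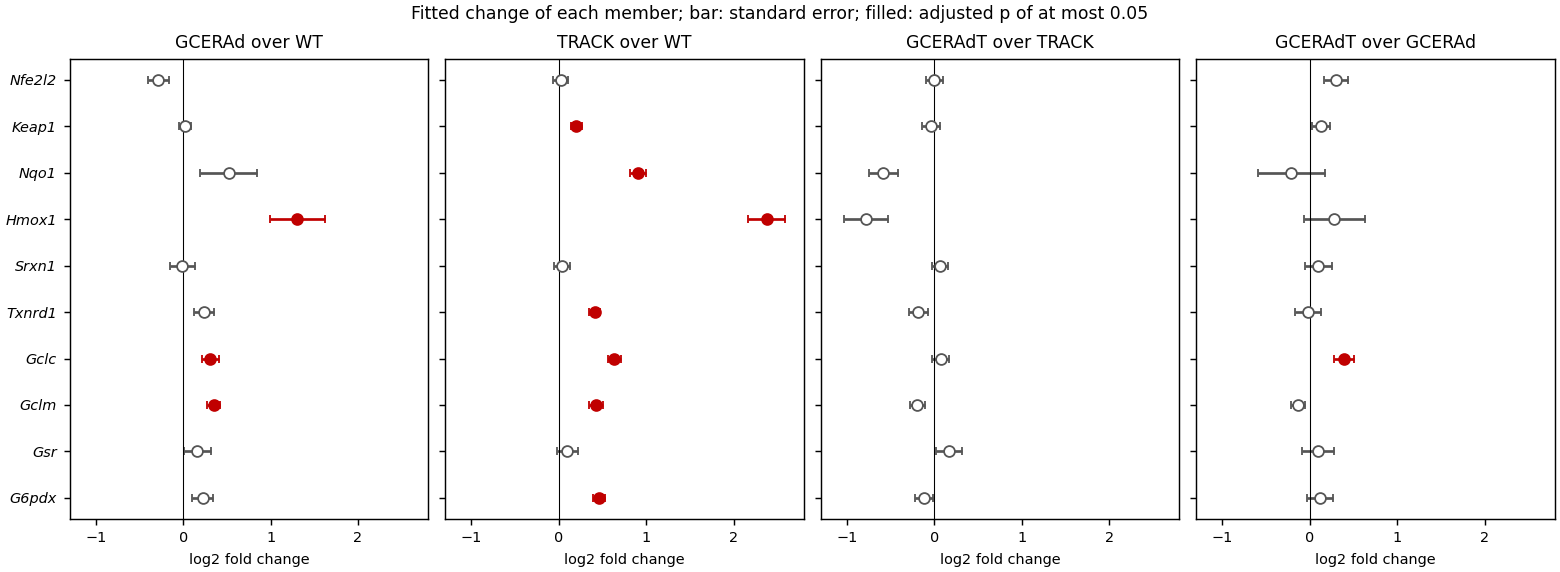
Fitted log2 fold changes of the 10 genes (rows) in 4 comparisons (panels), with the standard error as a bar and filled points for adjusted p of at most 0.05. Filled points are 3 in GCERAd over WT, 7 in TRACK over WT, 0 in GCERAdT over TRACK and 1 in GCERAdT over GCERAd.

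Within the TRACK background, no member was called in GCERAdT over TRACK by edgeR, where 7.09% of 11928 genes were called, 2.81% higher and 4.28% lower. At an unadjusted p under 0.05 the count was 2, Nqo1 and Hmox1, and DESeq2 called 1, Nqo1. With no filter both were called (adjusted p = 0.0140 and 0.0154), and with the replicate block Nqo1 was (adjusted p = 0.0139). Nqo1 had a log2 change of -0.58 ± 0.17 (adjusted p = 0.0664) and did not overlap between the groups, and Gclm, with -0.19 ± 0.09 (adjusted p = 0.200), did not overlap either, against 22.9% of all genes. Hmox1 had -0.78 ± 0.26 (adjusted p = 0.0973), with GCERAdT 4 within the TRACK range. Without GCERAdT 4, Nqo1 was called at -0.75 (adjusted p = 0.00959). The other 7 genes lay between -0.18 (Txnrd1) and 0.17 (Gsr). These samples all carry Ddx3y, so the pattern of Xist and Y-linked genes does not separate them. Library kind partly does: every TRACK library is of kind B, whereas GCERAdT 1 and 2 are of kind A and GCERAdT 3 and 4 of kind B. With library kind as a covariate, 462 genes were called, against 846 without it.

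Among the ATF4 KO labels, GCERAdT was compared with GCERAd. Of the 10 genes, 1 was called, Gclc, with a log2 change of 0.39 ± 0.11 (adjusted p = 0.0326) and no overlap, where 19.2% of 11816 genes were called, 9.39% higher and 9.79% lower. The call was lost without GCERAd 3 or 4 or without any single GCERAdT sample, with adjusted p between 0.0541 and 0.0830. It was lost, too, with no filter (adjusted p = 0.0601), with GCERAdT 2 and 3 summed (adjusted p = 0.0622) and within kind A or kind B libraries (adjusted p = 0.235 and 0.0818). Hmox1 gave 0.28 ± 0.35 (adjusted p = 0.628) and Nqo1 -0.21 ± 0.38 (adjusted p = 0.750), both with GCERAd samples below and above the GCERAdT range. Without GCERAd 4 and 5, 5 of 10 were called and all were higher, where 28.3% of genes were called and 14.8% were called higher. They were Nfe2l2 with 0.54 ± 0.09 (adjusted p = 0.00139), Nqo1 with 0.60 ± 0.18 (adjusted p = 0.0362), Hmox1 with 1.05 ± 0.15 (adjusted p = 7.60e-04), Srxn1 with 0.39 ± 0.09 (adjusted p = 0.00970) and Gclc with 0.28 ± 0.09 (adjusted p = 0.0477). With the mouse number as a block, 3 were called, Nfe2l2 at 0.39 (adjusted p = 0.0289), Hmox1 at 0.67 (adjusted p = 0.0219) and Gsr at 0.21 (adjusted p = 0.0299), while Gclc was at 0.34 (adjusted p = 0.0502). Same-numbered samples also share library kind, GCERAd 5 has no partner in this block, and no source names the mice as pairs.

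**Figure D3:**
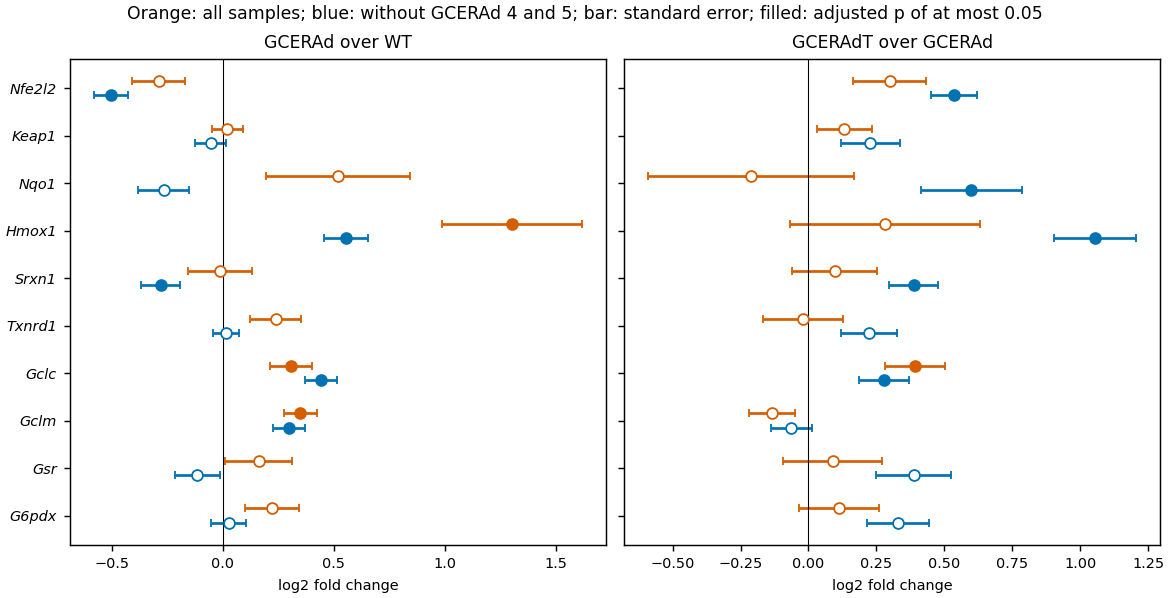
Log2 fold changes of the 10 genes (rows) with all samples (orange) and without GCERAd 4 and 5 (blue), for GCERAd over WT (left) and GCERAdT over GCERAd (right). Bars are standard errors and filled points have adjusted p of at most 0.05. The points of Nqo1 lie on opposite sides of 0 in each panel.

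Whether the ATF4 KO contrast differed with and without TRACK was tested in a fit of all 17 samples. The difference was called for 2 of the 10 genes, both lower, where 25.1% of 12208 genes were called and 12.8% were called lower. For Hmox1 it was -2.08 ± 0.47 (adjusted p = 0.00421) on the log2 scale and for Gclm -0.54 ± 0.11 (adjusted p = 0.00223). Both genes were higher in GCERAd than in WT and had mean levels in GCERAdT below those in TRACK, at 42.7 ± 9.32 (SD, n = 4) against 74.3 ± 32.9 CPM (SD, n = 3) for Hmox1 and 317 ± 14.2 against 369 ± 28.6 CPM for Gclm. Without GCERAd 4 and 5 the differences were -1.34 ± 0.29 (adjusted p = 0.00397) and -0.50 ± 0.11 (adjusted p = 0.00324), and Nfe2l2 and Gclc were called as well, with 0.50 ± 0.12 (adjusted p = 0.00663) and -0.37 ± 0.11 (adjusted p = 0.0257). In that fit 23.8% of 12268 genes were called, 11.4% higher and 12.5% lower. With all samples, Nqo1 gave -1.10 ± 0.45 (adjusted p = 0.0814), and -0.32 ± 0.22 (adjusted p = 0.315) without GCERAd 4 and 5. With the replicate block, Nqo1 (adjusted p = 0.0343) and Txnrd1 (adjusted p = 0.0217) were called too, both lower.

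Among themselves the 10 genes did not vary as a block. Over the 17 samples, which share group structure and library kind, Pearson's r of log2 CPM was highest between Nqo1 and Txnrd1 with 0.925, between Txnrd1 and G6pdx with 0.903 and between Hmox1 and Txnrd1 with 0.851. It was lowest between Nfe2l2 and Gclm with -0.18 and between Srxn1 and Gclc with -0.12. Gclc and Gclm, whose products form the same enzyme, had r = 0.450. Of 13293 genes, the most like Nqo1 was Hsd17b4 (r = 0.956), an enzyme of peroxisomal fatty acid oxidation, and the most like Txnrd1 was Pgd (r = 0.956), which follows G6pdx in the pentose phosphate pathway. Pgd was also the most like G6pdx (r = 0.917). Nfe2l2 was matched best by Cyp4a14 (r = 0.960), a fatty acid hydroxylase and PPAR alpha target, Hmox1 by Scarb2 (r = 0.952) and Gclc by Tbx10 (r = 0.956), with the tubule injury marker Havcr1 next (r = 0.916). These are descriptions over 17 samples in 4 groups.

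Nqo1 and Hmox1 were set against the summed level of 7 targets of PPAR alpha, a regulator of the response to fasting. The list was chosen after values were seen and holds Cyp4a14, Cyp4a10, Pdk4, Angptl4, Acot1, Plin2 and Ehhadh. The sum was 4047.6 to 5388.3 CPM in WT, 1299 to 1386 CPM in GCERAd 1 to 3, 9193 and 11302 CPM in GCERAd 4 and 5, 7048.7 to 11208.2 CPM in TRACK and 6021.8 to 6608.4 CPM in GCERAdT. The samples with the highest sums, GCERAd 4 and 5 and TRACK 3, also held the 3 highest Nqo1 values, and TRACK 3 and GCERAd 5 held the 2 highest Hmox1 values. Gclc and Hmox1 were both above every WT sample in GCERAd 1 to 3, which had the lowest sums. Hmox1 was at 19.0 to 22.7 CPM there and at 12.8 to 16.6 CPM in WT. Gclc was lower in GCERAd 4 and 5 than in GCERAd 1 to 3. The part of the fasting-related genes in the levels of the members was not tested.

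**Figure D4:**
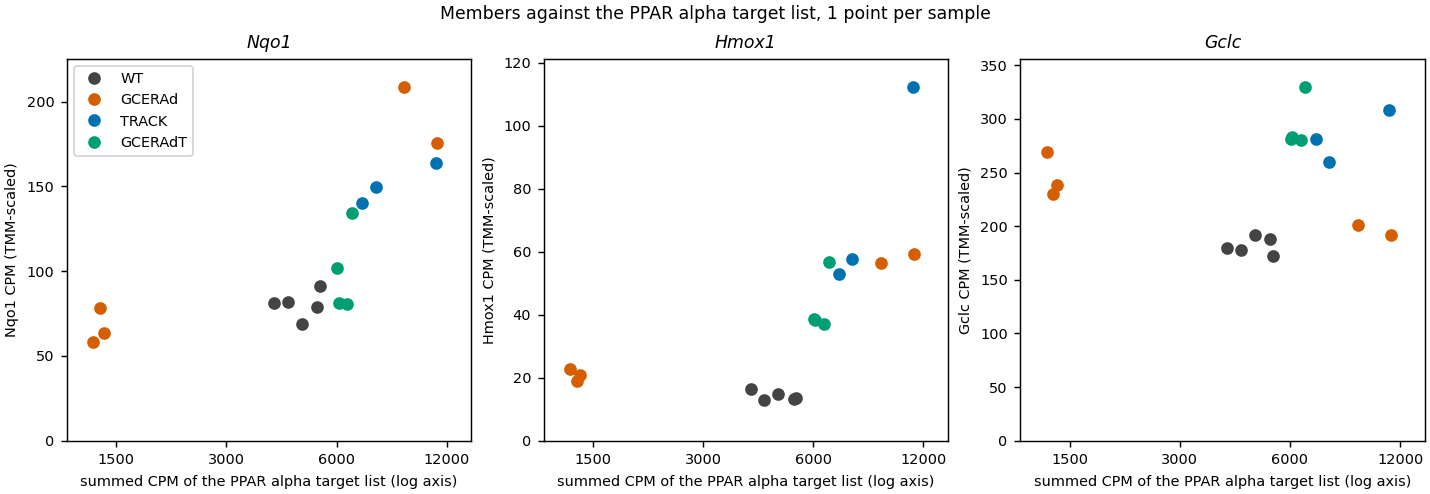
TMM-scaled CPM of Nqo1, Hmox1 and Gclc (vertical axes from 0) against the summed CPM of 7 PPAR alpha targets (log axis), with 1 point per sample and colours for the 4 groups. GCERAd falls into 3 samples at the left end and 2 near the right end, and the latter lie above the former for Nqo1 and Hmox1 and below them for Gclc.

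The wider pathway was read from 7 lists of 70 further genes. In GCERAd over WT, 65 were tested, 14 were called higher and 10 lower, and their median log2 fold change was 0.16. Over all genes tested, 14.1% were higher and 13.5% lower. The detoxification and export list held 4 of the lower calls among 10 genes tested: Abcc3, an export pump for conjugates, fell by 4.99 on the log2 scale, from 86.1 ± 38.9 CPM (SD, n = 5) in WT to 2.72 ± 0.839 CPM, and the carbonyl reductase Cbr1 fell by 2.94, from 376 ± 53.7 to 49.6 ± 26.8 CPM. The largest called increases were in Me1, the cytosolic malic enzyme that makes NADPH, with 1.31 ± 0.12 (adjusted p = 1.18e-05), and in Abcc2, an apical export pump, with 0.67 ± 0.13 (adjusted p = 0.00286). Without GCERAd 4 and 5, 11 of 64 were higher and 16 lower, against 16.2% and 14.7% of all genes.

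In TRACK over WT, 66 of the 70 were tested, 24 were called higher and 20 lower, and the median log2 fold change was 0.05. The shares over all genes were 23% higher and 22.6% lower. Regulators of NRF2 held 7 higher and 3 lower calls among 13, with Maff, a small MAF partner, at 2.54 ± 0.24 (adjusted p = 3.22e-05). The glutathione list held 4 higher and 7 lower among 14. Its Chac1, which degrades glutathione and is a known ATF4 target, had the largest called increase with 3.57 ± 0.55 (adjusted p = 6.48e-04), at 3.28 ± 0.265 CPM (SD, n = 3) against 0.277 ± 0.212 CPM (SD, n = 5). Its glutathione transferase Gsta4 fell by 2.44 and the export pump Abcc3 by 3.88. Both contrasts share the WT samples.

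In GCERAdT over TRACK, 2 of 66 were called higher and 6 lower, against 2.81% and 4.28% of all genes. Gsta2 rose by 0.94 ± 0.14 (adjusted p = 0.00557) and the export pump Abcc4 by 0.60 ± 0.12 (adjusted p = 0.0168), and Chac1 and the epoxide hydrolase Ephx1 fell by 1.16 and 0.83 on the log2 scale. In GCERAdT over GCERAd, where 9.39% of all genes were higher and 9.79% lower, 9 of 64 were higher, led by Maff with 1.20 ± 0.37 (adjusted p = 0.0455) and Akr1b8 with 1.20 ± 0.32 (adjusted p = 0.0245), and 8 were lower, led by Osgin1 with -0.85 ± 0.14 (adjusted p = 0.00278) and the glutaredoxin Glrx with -0.53 ± 0.16 (adjusted p = 0.0368). Without GCERAd 4 and 5 these counts were 19 and 11, where 14.8% and 13.5% of all genes were called. The difference between the ATF4 KO contrasts was called for 31 of 66, 12 higher and 19 lower, where 12.3% and 12.8% of all genes were called. Without GCERAd 4 and 5, 15 of 66 were higher and 14 lower, where 11.4% and 12.5% of all genes were called. With all samples, the largest values among the called genes were for Abcc3 at 4.86 ± 0.51 (adjusted p = 4.42e-06) and Gsta1 at 3.11 ± 0.64 (adjusted p = 0.00225). The lowest were for Me1 at -1.07 ± 0.20 (adjusted p = 0.00110) and Glrx at -1.04 ± 0.21 (adjusted p = 0.00190). Mean levels in WT, GCERAd, TRACK and GCERAdT were 86.1, 2.72, 5.81 and 5.19 CPM for Abcc3 and 3.45, 0.548, 0.851 and 1.15 CPM for Gsta1. WT stood apart from the other groups for both, and for Me1, at 191 against 476, 533 and 620 CPM. These differences and the pattern of Xist and Y-linked genes cannot be told apart.

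**Figure D5:**
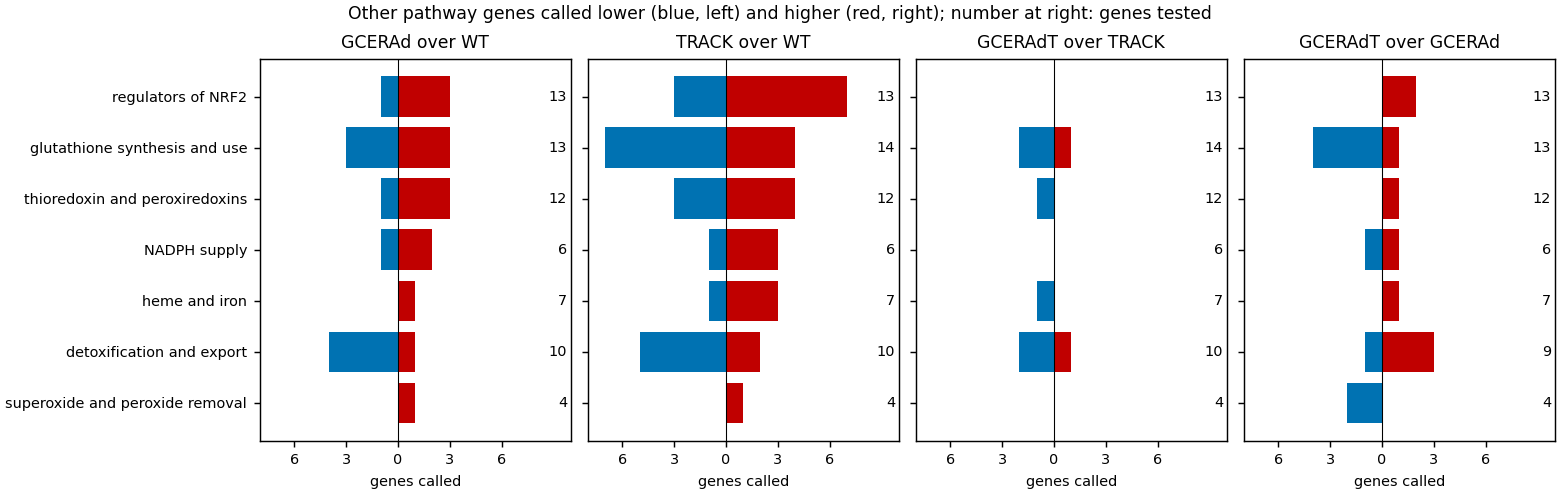
Numbers of genes called lower (blue, to the left) and higher (red, to the right) in 7 lists of further NRF2 pathway genes (rows) for 4 comparisons (panels), with the number tested at the right edge. TRACK over WT holds most calls, 24 higher and 20 lower of 66, and GCERAdT over TRACK holds 2 and 6.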

How the data were processed

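RNA of 17 mouse kidney cortices was sequenced from stranded mRNA libraries. The authors used bcl2fastq 2.20 for demultiplexing, Cutadapt for trimming, STAR for alignment (GRCm38) and HTSeq-count for counting, and the deposited values are raw counts without normalization. The annotation release and the strand setting are not given in the sources used here. The members and gene lists were chosen with earlier results of these data known. Counts were TMM-scaled and tested in R 4.3.3 with the edgeR 4.0.16 quasi-likelihood test, on genes whose FPKM averaged 1 or more in any group of the fit (lengths from GENCODE M21), with Benjamini-Hochberg adjustment over all genes tested and calls at adjusted p of at most 0.05. Standard errors of log2 fold changes were taken as the size of the change over the square root of the quasi-likelihood F. Each comparison used its own groups, and the difference between contrasts used all 17 samples. Groups came from the labels. Text names all members, up to the 2 largest called changes each way in the pathway lists, Atf4, 5 sex-linked genes, and genes most alike by Pearson's r (prior count 0.5). The PPAR alpha list and Havcr1 were chosen after their values were seen. Alternatives were DESeq2 1.42.0, RLE scaling, other filters, the replicate block, library kind, summed libraries and samples left out. Same-numbered GCERAd and GCERAdT mice deviated together (r = 0.41 to 0.51 in 4 pairs). They also share library kind, so a pairing of mice and library kind cannot be told apart by these correlations. The mouse number was used as a block in every comparison, as an alternative only. In the other comparisons these correlations gave no basis for the block (r = -0.55 to 0.08). The test was checked on simulated counts.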

Additional observations from a re-analysis of the deposited data

Results flagged for a closer look

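In GCERAdT, GCERAdT 4 stood apart from the other 3 samples for 3 genes: Gclc with 329 CPM against 283 CPM in the nearest sample, Gsr with 190.4 against 135 CPM and Hmox1 with 56.7 against 38.6 CPM. In GCERAd, Gclm was highest in GCERAd 4 with 404 CPM, against 348 CPM in GCERAd 5. In WT, Txnrd1 was highest in WT 5 with 158 CPM, against 152 CPM in the nearest sample, a gap that is small beside the differences between groups. These 5 values passed Dixon's 95% limit for the gap over the range, out of 30 groups of values tested, and chance passes about 1 in 20 groups.

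The ATF4 KO contrast differed with and without TRACK by an interaction test for Hmox1, by -2.08 on the log2 scale, and for Gclm, by -0.54. The mean of Hmox1 was higher in GCERAd than in WT and lower in GCERAdT than in TRACK. Since all WT samples have Xist and no Ddx3y and all other samples have Ddx3y, that pattern and the difference cannot be told apart.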

How the results depend on the processing

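Log2 fold changes of the members called with all samples kept their direction under every alternative tried. The values below are changes of sign, counts that moved and calls lost among kind B libraries, and most other lost or gained calls stand beside each gene above. As to depth, the lowest count of a member in any sample was 695. The cause of each move was not tested.

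Same-numbered samples deviated together only in GCERAdT over GCERAd, where they also share library kind (the correlations of the other comparisons were -0.55 to 0.08). With the mouse number as a replicate block, genes called went from 3198 to 2106 in GCERAd over WT. They went from 5458 to 3431 in TRACK over WT and from 2266 to 3770 in GCERAdT over GCERAd. Members called went from 1 to 3 in GCERAdT over GCERAd, from 0 to 1 in GCERAdT over TRACK and from 2 to 4 in the difference between contrasts, and pathway genes from 24 to 14 in GCERAd over WT and from 17 to 26 in GCERAdT over GCERAd. Under the block, GCERAdT over GCERAd turned for Nqo1 (-0.21 to 0.16) and Txnrd1 (-0.022 to 0.056), and Gsr turned in TRACK over WT (0.096 to -0.030) and in the difference (0.0095 to -0.024).

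Without GCERAd 4 and 5, added after seeing the data as were library kinds and GCERAdT 2 and 3 summed, members called were 5 in GCERAd over WT, 5 in GCERAdT over GCERAd and 4 in the difference, and pathway genes were 30 in GCERAdT over GCERAd. Over all genes tested, 30.9%, 28.3% and 23.8% were called in these fits, in the same order. GCERAd over WT turned for Keap1 (-0.055), Nqo1 (-0.27) and Gsr (-0.11), GCERAdT over GCERAd for Nqo1 (0.60) and Txnrd1 (0.22), and the difference for Keap1 (0.016).

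Among kind A libraries, members called were 6 in GCERAd over WT, 3 higher and 3 lower, and 4 in GCERAdT over GCERAd, all higher. Pathway genes called were 26 in the latter, 17 higher and 9 lower. Shares over all genes are not given here for these fits, so the counts are not set against a background. GCERAd over WT turned for Keap1 (-0.0067), Nqo1 (-0.35, called, adjusted p = 0.0225) and Gsr (-0.076), and GCERAdT over GCERAd for Nqo1 (0.44, called, adjusted p = 0.00612) and Txnrd1 (0.14). Among kind B libraries, with 1 WT sample, genes, members and pathway genes called were 98, 0 and 3 in GCERAd over WT, 1475, 4 and 15 in TRACK over WT, 349, 0 and 3 in GCERAdT over GCERAd, and 452, 0 and 3 in the difference. In GCERAdT over TRACK, 221 genes and 1 pathway gene were called. For the counts of 0 by edgeR, unadjusted p under 0.05 gave 0, 1 and 2 members and DESeq2 gave 1 each. Kind B also lost Hmox1 and Gclm in GCERAd over WT (adjusted p = 0.347 and 0.409) and in the difference (0.148 and 0.138), Gclc in GCERAd over WT (0.560) and Txnrd1 and Keap1 in TRACK over WT (0.0629 and 0.304). Kind B turned Srxn1 in GCERAd over WT (0.17), GCERAdT over GCERAd (-0.042) and the difference (-0.093), Nfe2l2 (0.040) and Keap1 (0.051) in GCERAdT over TRACK, Nfe2l2 (-0.065) and Gsr (-0.036) in TRACK over WT, and Keap1 in the difference (0.0086).

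With library kind as a covariate, genes called were 462 in GCERAdT over TRACK and 2776 in TRACK over WT, and pathway genes 4 in the former, 23 in the latter and 20 in the difference. It turned Nfe2l2 (0.043) and Keap1 (0.053) in GCERAdT over TRACK, Nfe2l2 (-0.066) and Gsr (-0.037) in TRACK over WT, Txnrd1 in GCERAdT over GCERAd (0.014) and Keap1 in the difference (0.025).

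In GCERAdT over TRACK, DESeq2 called 1562 genes and 1 member against 846 and 0, no filter gave 2 members, and 1 fit of all 17 samples gave 5 pathway genes against 8. With GCERAdT 2 and 3 summed, that comparison gave 498 genes and 5 pathway genes, and GCERAdT over GCERAd gave 0 members, 9 pathway genes and Txnrd1 at 0.020. With no filter GCERAdT over GCERAd also gave 0 members. Both counts of 0 had 1 member at an unadjusted p under 0.05 and 1 by DESeq2. Possible repeat libraries summed turned Srxn1 in GCERAd over WT (0.050) and Gsr in the difference (-0.092). The Gsr difference also turned with DESeq2 (-0.0041), RLE scaling (-0.0040), a mean CPM of at least 1 (-0.022) and no filter (-0.026).

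With each sample left out in turn, genes called ranged from 379 (without GCERAdT 2) to 1424 (without GCERAdT 4) in GCERAdT over TRACK and from 1427 to 2336 in GCERAdT over GCERAd. Members called ranged from 0 to 1 in both, and pathway genes from 15 to 25 in GCERAd over WT, 2 to 14 in GCERAdT over TRACK, 9 to 18 in GCERAdT over GCERAd and 19 to 34 in the difference. Log2 fold changes that crossed 0 ranged as follows. In GCERAd over WT they were -0.11 to 0.069 for Srxn1 and -0.022 to 0.061 for Keap1. In GCERAdT over TRACK they were -0.071 to 0.11 for Nfe2l2 and -0.12 to 0.026 for Keap1. In TRACK over WT they were -0.079 to 0.087 for Nfe2l2, -0.029 to 0.094 for Srxn1 and -0.022 to 0.16 for Gsr. In GCERAdT over GCERAd they were -0.38 to 0.11 for Nqo1, -0.11 to 0.090 for Txnrd1 and -0.058 to 0.21 for Gsr. In the difference they were -0.14 to 0.12 for Gsr, -1.0e-05 to 0.18 for Srxn1 and -0.13 to 9.3e-04 for Keap1.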
